A study of Mus musculus with 2 samples.

Results

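Fibroblasts of the meninges and vessels were a small class of cells in single-cell RNA sequencing of mouse cerebellum, with 73 of 3451 kept cells. The data came from 2 libraries, 1 labelled WT (wild-type littermates on C57BL/6) and 1 labelled KIKO (knock-in knock-out mice, which model Friedreich ataxia). Per the study's methods, each library pooled the cerebella of 4 mice at 6 months of age (the study used both sexes), and the dissociated cells were frozen and thawed before droplet capture (10x Genomics, 3′ ends, each molecule tagged with a unique molecular identifier, UMI). With 1 library per genotype there was no replicate, so no test of genotype was possible, and intervals below cover counting error only. A barcode was kept if it had over 500 genes, over 1000 and at most 20000 UMIs, and a mitochondrial share of UMIs under 10%. A kept cell was taken as a fibroblast when at least 3 of the 6 genes Dcn, Col1a1, Lum, Apod, Igfbp6 and Col3a1 had a UMI and fewer than 3 of the 5 mural genes Abcc9, Kcnj8, Atp13a5, Vtn and Notch3 did. The members were thus chosen by measured values, so the levels of these genes are a description. The WT-labelled library held 41 such cells with 362792 UMIs together, and the KIKO-labelled library held 32 with 284669 UMIs. Levels are given as CPM, the UMIs of a gene in 1000000 UMIs summed over the cells named.

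Fibroblasts of the brain coverings lie in the pia, the arachnoid and the dura, and they follow larger vessels into the tissue as perivascular fibroblasts. They secrete collagens, proteoglycans and laminins, build the outer basement membrane of the brain surface, and carry transporters for amino acids, organic ions and drugs between cerebrospinal fluid and blood. They also supply growth factors, retinoic acid and binding proteins for both to the tissue beneath them.

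Among the genes of the rule, Apod, a lipocalin that carries lipids, and Dcn (decorin), a small proteoglycan that binds collagen fibrils, were the most abundant in UMIs. Apod was at 10562 CPM in the WT-labelled and 12660.3 CPM in the KIKO-labelled fibroblasts, against 240.3 and 194 CPM in all other kept cells. Dcn was at 3627 and 4412 CPM, against 31.9 and 26.5 CPM elsewhere. Col1a1, which encodes a chain of the main fibrillar collagen, was at 502 and 443 CPM. Lum (lumican, a proteoglycan of collagen fibrils) was at 314 and 362 CPM, and Col3a1 (the type III collagen chain) at 251 and 327 CPM. Igfbp6, a binding protein for insulin-like growth factor, was at 689 and 467 CPM and was found in the fewest cells, 20 of 41 and 10 of 32. The values on either side of the limit of 3 genes are given as a description. The 40 WT-labelled and 48 KIKO-labelled kept cells with exactly 2 of the 6 genes held a median of 4 and 3.5 UMIs of these genes. The 11 and 12 kept cells with exactly 3 held a median of 28 and 42. At least 4 endothelial markers were found in 34 of 40 and 35 of 48 of the cells with 2 genes, and in 5 of 11 and 8 of 12 of those with 3. The limit on mural genes removed 1 WT-labelled and 7 KIKO-labelled cells that otherwise met the rule, and Vtn was among the detected genes in 1 and 6 of them.

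**Figure D1:**
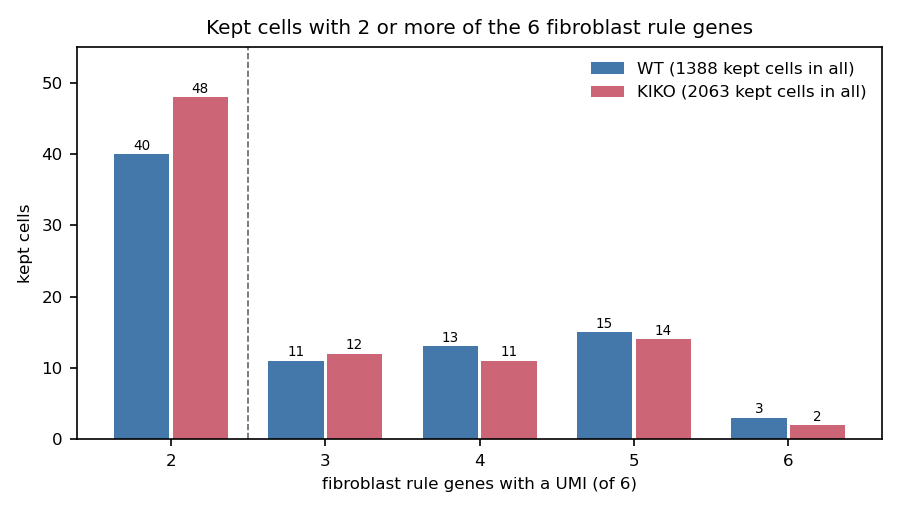
Number of kept cells (y axis) by how many of the 6 genes of the rule had a UMI (x axis, 2 to 6), for the WT-labelled and KIKO-labelled libraries, before the limit on mural genes. Cells with 2 genes, just outside the rule, numbered 40 and 48, and those with 3, 4, 5 and 6 genes numbered 11, 13, 15 and 3 in the WT-labelled library and 12, 11, 14 and 2 in the KIKO-labelled library.

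Depth did not separate the libraries: fibroblasts held a median of 8789 UMIs and 2944 genes in the WT-labelled library and 8130 UMIs and 3062.5 genes in the KIKO-labelled library, with ranges of 1144 to 17933 and 1286 to 19672 UMIs. No barcode was shared between the libraries among kept cells, although 45 of the deposited barcodes were. Ttr, the transthyretin of choroid plexus epithelium, gives a measure of free RNA. After each cell was thinned to 1000 UMIs, Ttr had a UMI in 90.2% of WT-labelled and 59.4% of KIKO-labelled fibroblasts, and in 89.8% and 62.3% of cells that met an endothelial rule (at least 4 of 12 endothelial markers, no mural or fibroblast call). The libraries are named by their labels throughout, since no value given here checks those labels.

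The genes that set the fibroblasts most apart from all other kept cells, among those at 100 CPM or more in fibroblasts of both libraries, included secreted proteins, matrix proteins, a receptor and transporters. Because the cells were chosen by fibroblast genes, this is a description of the members. Rbp4, the plasma carrier of retinol, led the 20 leading genes, ranked by the smaller of their ratios in the libraries, with 521 and 372 CPM, against 0.560 and 0.559 CPM elsewhere. Crabp2, which carries retinoic acid inside cells, was at 129.6 and 133 CPM, against 0.373 and 0.249. Mfap5, a protein of elastic microfibrils, was at 190.2 and 148 CPM, and Prg4, a lubricating proteoglycan, at 193 and 502 CPM. Basement membrane was represented by Lama1, the laminin chain of the brain surface, at 598 and 699 CPM, and by Col15a1 at 339 and 523 CPM. Pdgfra, the receptor for platelet-derived growth factor that marks fibroblasts, was at 300.4 and 393 CPM, against 4.01 and 3.42. The remaining leaders included Igfbp5, Rspo3 (an enhancer of Wnt signalling), Efemp1, Serpinf1, Scara5, Itih2, Col6a1 and the transporters Slc47a1 and Slc26a7. The spread over cells was uneven: Rbp4 had a UMI in 10 WT-labelled and 7 KIKO-labelled fibroblasts, while Efemp1 had one in 29 and 29.

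**Figure D2:**
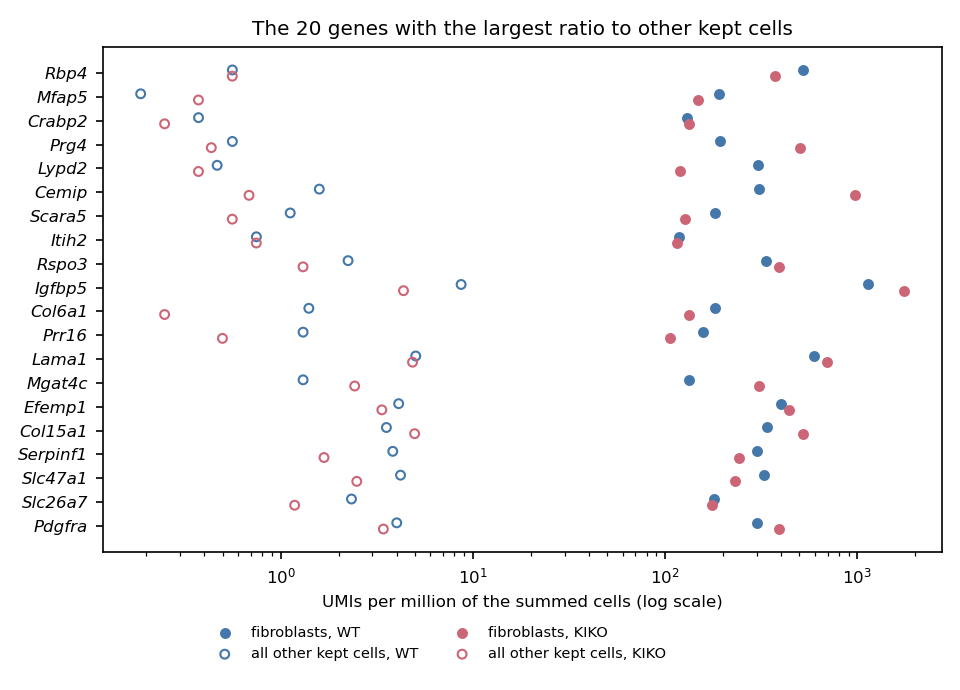
Level in CPM (log axis) of the 20 leading genes in fibroblasts and in all other kept cells, for the WT-labelled and KIKO-labelled libraries. Rbp4 stood at 521 and 372 CPM in fibroblasts against 0.560 and 0.559 CPM in other cells, and Pdgfra at 300.4 and 393 CPM against 4.01 and 3.42.

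The fibroblasts fell into cells with Slc6a13 and cells with Slc47a1, which did not overlap. Slc6a13 encodes a transporter of GABA and taurine (GAT2), at chr6:121300227-121337733 on the plus strand. Slc47a1 encodes an exporter of organic cations (MATE1), at chr11:61343401-61378345 on the minus strand. Slc6a13 had a UMI in 16 WT-labelled and 22 KIKO-labelled fibroblasts, and Slc47a1 in 13 and 6. No fibroblast of either library held a UMI of both, and 12 and 4 held neither. After thinning to 1000 UMIs, the carriers numbered 9 and 14 for Slc6a13 and 6 and 5 for Slc47a1, and 0 cells held both. With so few carriers left, few cells would hold both even if the genes were unrelated, so this count adds little. The Slc47a1 cells were the deeper ones and held a median of 15453 and 13701.5 UMIs, against 7544 and 7114 in the Slc6a13 cells. Outside the fibroblasts, Slc6a13 had a UMI in 3.27% and 2.86% of the other kept cells and Slc47a1 in 0.742% and 0.345%. This division was chosen after the values were seen, and both genes stand in a list of arachnoid fibroblast genes, so no layer name is given to either kind here.

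The reference promoters of 3 genes that marked one kind of cell are shown from RefSeq (GRCm38.p6), each 250 bases before and 50 after the annotated start. Slc6a13 marked the first kind, and Slc4a10 (a sodium bicarbonate transporter) and Rbp4 marked the second. No entry was found for Slc47a1, Mgp or Dcn. Capitals mark the core that forkhead factors bind, TAAACA or TGTTTA on the other strand, because the forkhead factor Foxc1 is needed for meningeal development and was found in both kinds.

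Slc6a13, chr6:121300038-121300337, plus strand: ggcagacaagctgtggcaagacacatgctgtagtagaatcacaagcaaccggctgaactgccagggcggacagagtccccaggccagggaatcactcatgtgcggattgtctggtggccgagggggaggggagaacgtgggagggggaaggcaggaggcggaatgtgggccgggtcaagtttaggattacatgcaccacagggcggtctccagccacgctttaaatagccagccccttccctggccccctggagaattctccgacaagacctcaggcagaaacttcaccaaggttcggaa
Slc4a10, chr2:62046265-62046564, plus strand: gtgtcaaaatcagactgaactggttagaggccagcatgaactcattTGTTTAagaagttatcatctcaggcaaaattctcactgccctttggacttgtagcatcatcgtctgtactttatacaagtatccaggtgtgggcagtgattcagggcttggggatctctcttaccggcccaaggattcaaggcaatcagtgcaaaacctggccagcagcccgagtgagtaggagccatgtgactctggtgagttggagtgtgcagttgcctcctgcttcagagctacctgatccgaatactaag
Rbp4, chr19:38125272-38125571, minus strand: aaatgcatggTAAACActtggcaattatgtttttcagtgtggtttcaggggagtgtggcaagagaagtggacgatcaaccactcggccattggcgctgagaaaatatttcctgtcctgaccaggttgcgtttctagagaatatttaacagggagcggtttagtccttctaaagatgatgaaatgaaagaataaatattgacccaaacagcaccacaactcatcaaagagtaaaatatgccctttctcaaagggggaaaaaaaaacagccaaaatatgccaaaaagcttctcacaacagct

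The core was absent from the Slc6a13 window and present once in each of the other windows shown. Its first base lay 204 bases before the start shown for Slc4a10 and 240 bases before that shown for Rbp4. Slc6a13 had 3 annotated starts, 0 of them with the core in the window. Slc4a10 and Rbp4 had 2 each, and only 1 of the 2 windows held the core. Of all 32851 windows of this length, 4416 (13.4%) held it on either strand. A match describes these letters and is not a binding site. Foxc1 itself was at 238 and 172 CPM in the Slc6a13 cells and at 241 and 198 CPM in the Slc47a1 cells. Other factors of meningeal development were likewise found in both kinds. Zic1 was at 377 and 245 CPM in the first kind and 299.9 and 172 CPM in the second. Foxd1 was at 287 and 229 CPM in the first and 351 and 462 CPM in the second. Tbx18, a T-box factor of mesenchymal and mural cells, stood mostly on the Slc6a13 side, with 246 and 539 CPM there and 21.9 and 0 CPM in the other kind.

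**Figure D3:**
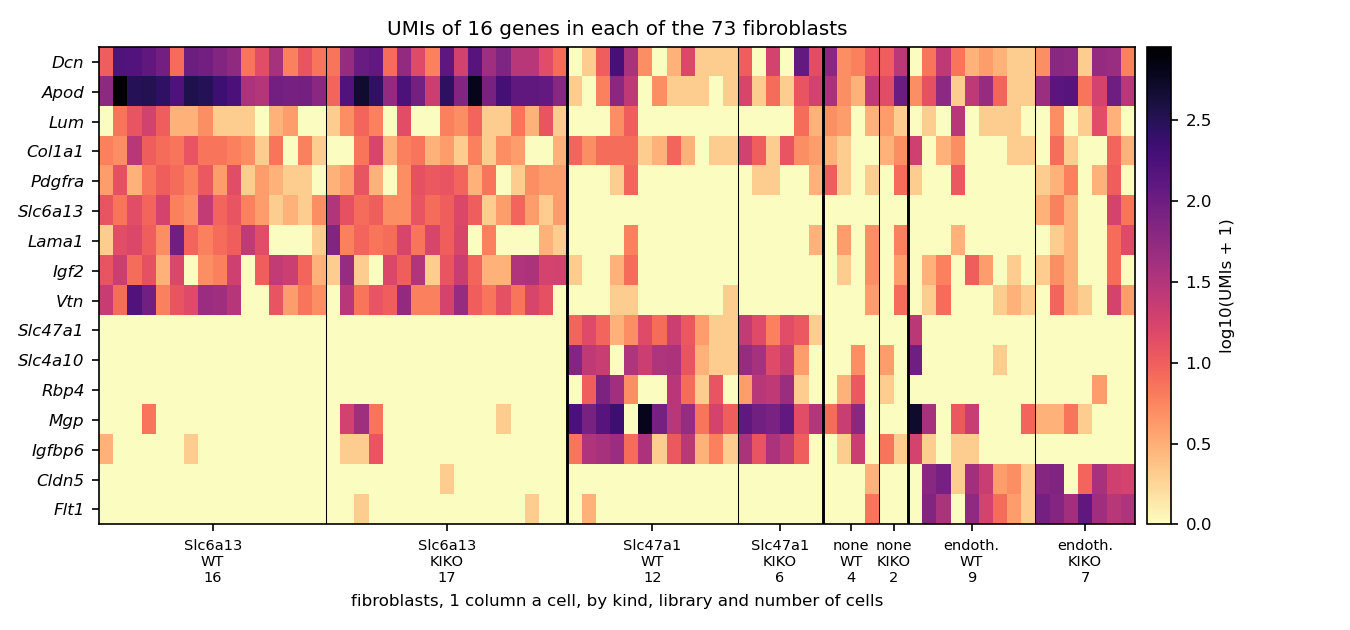
Each column is a fibroblast, grouped by library and by kind, and each row is a gene, with colour giving log10(UMIs + 1). Cells with at least 4 endothelial markers (9 WT-labelled and 7 KIKO-labelled) stand at the right, the Slc6a13 kind without them held 16 and 17 cells and the Slc47a1 kind 12 and 6, and no column carried both genes.

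For the levels of each kind that follow, cells with at least 4 of 12 endothelial markers were left out, since no doublet caller was run. This left 16 WT-labelled and 17 KIKO-labelled Slc6a13 cells and 12 and 6 Slc47a1 cells. In both libraries, 110 genes were at least 5-fold higher in the Slc6a13 kind and 98 in the Slc47a1 kind. Only genes at 100 CPM or more in that kind in both libraries were counted, with counts below 3 in the other kind taken as 3. The number of genes at that level was not recorded, so no share is given beside these counts. The kinds were defined on these cells, so the counts describe them and test nothing.

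Slc6a13 cells were rich in basement membrane. Lama1 was at 1663 CPM in the WT-labelled and 1372 CPM in the KIKO-labelled Slc6a13 cells, against 36.6 and 26.4 CPM in the Slc47a1 cells. The collagen chains Col4a5 and Col4a6, which lie side by side in the genome and assemble into a network of their own, were at 811 and 825 CPM and at 459 and 662 CPM, and had no UMI in the Slc47a1 cells. Col15a1 was at 983 and 1054 CPM against 7.31 and 13.2 CPM. Over the 22 genes of the basement membrane list, the Slc6a13 cells gave 0.842% and 0.849% of their UMIs and the Slc47a1 cells 0.116% and 0.100%. Mural cells gave 0.296% and 0.371%, and endothelial cells 0.127% and 0.122%. By this share the Slc6a13 kind stood above mural and endothelial cells in both libraries.

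Several secreted proteins and receptors followed the same kind. Apod was at 28731 and 24206 CPM in Slc6a13 cells and at 724 and 713 CPM in Slc47a1 cells. Spp1 (osteopontin, a secreted phosphoprotein of matrix) was at 2449.5 and 3186 CPM against 7.31 and 26.4 CPM. Igf2, the insulin-like growth factor made by meninges and choroid plexus stroma, was at 1286 and 2059 CPM against 73.1 and 0 CPM. Il34, a ligand of the receptor that keeps microglia and macrophages alive, was at 623 and 654 CPM against 7.31 and 0 CPM. Pdgfra was at 639 and 669.9 CPM against 65.8 and 52.8 CPM, and Bmp6, a bone morphogenetic protein, at 827 and 368 CPM against 102 and 145 CPM. Aldh1a2 and Aldh1a1, which make retinoic acid from retinal, were at 246 and 294 CPM and at 754 and 441 CPM, against 14.6 and 0 CPM and 36.6 and 0 CPM. By these sums, Aldh1a2 and Aldh1a1 stood mostly on the Slc6a13 side, where the retinol carrier Rbp4 had no UMI. Whether single cells of the other kind held Rbp4 together with either enzyme was not counted.

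Transporters on this side included Slc1a3, a glutamate transporter best known from astrocytes, at 934 and 1038 CPM against 7.31 and 13.2 CPM, and Slc6a20a, a carrier of proline and other imino acids, at 713 and 547 CPM against 0 and 0. The organic anion transporters Slc22a6 and Slc22a8 were at 90.1 and 212 CPM and at 246 and 139 CPM, and also had no UMI in the Slc47a1 cells. Vtn (vitronectin, an adhesive protein of plasma and matrix) was at 3670.2 and 1977 CPM in Slc6a13 cells, 21.9 and 0 CPM in Slc47a1 cells, and 4533 and 5543 CPM in mural cells. Vtn is one of the 5 mural genes that limit membership, and yet 14 of 16 and 15 of 17 Slc6a13 cells held it. Over the list of 12 mural markers, the Slc6a13 cells summed to 3850.4 and 2075 CPM, nearly all of it Vtn. Mural cells summed to 13836 and 16111 CPM. The rule limits how many of the 5 mural genes a fibroblast may hold, and mural cells were chosen for holding several of them. Low levels of the other mural genes of the rule were thus partly set by the choice of cells, and the contrast is a description.

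Slc47a1 cells carried genes of barrier-forming and dense connective tissue. Mgp (matrix Gla protein, an inhibitor of calcification) was at 10546 CPM in the WT-labelled and 6046 CPM in the KIKO-labelled Slc47a1 cells, and at 49.2 and 556 CPM in Slc6a13 cells. Igfbp6 was at 1507 and 1492 CPM against 24.6 and 106 CPM. Igfbp5, another binding protein for insulin-like growth factors, was at 2033 and 5782 CPM against 262 and 425 CPM. Over the 9 genes of the dural fibroblast list, these cells gave 1.45% and 1.07% of their UMIs against 0.0721% and 0.149% in the Slc6a13 kind. Most of this was Mgp.

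Several secreted signals and transporters of the Slc47a1 kind had no UMI in the other. Ccn3, a matricellular protein of the CCN family, was at 2019 and 2337 CPM and had no UMI in Slc6a13 cells. Slc4a10 was at 1814 and 1663 CPM, and Rbp4 at 1295 and 1347 CPM, both with no UMI in Slc6a13 cells of either library. Rspo3 was at 702 and 1465 CPM, Slit2 (a guidance cue for axons and vessels) at 541 and 726 CPM, and Slc26a7 (an anion exchanger) at 395 and 660.1 CPM, again against 0. Zero UMIs in the 122064 and 122406 UMIs of the Slc6a13 cells bound a gene only by the 3 UMIs that a count of 0 allows. Cell contact genes of the arachnoid barrier were found here too. Cdh1, the epithelial cadherin, was at 139 and 66.0 CPM, and Cldn11, a tight junction claudin, at 212 and 145 CPM, both with 0 in Slc6a13 cells. The list of 12 arachnoid barrier genes took 0.151% and 0.300% of their UMIs, against 0.0115% and 0.0114% in the Slc6a13 kind. Most of this share came from genes other than Cdh1 and Cldn11, which both stood lower in the KIKO-labelled cells. Of the 4 genes of the list compared between libraries in the Slc47a1 kind, 2 stood above 0 and 2 below.

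Fibrillar and beaded collagens were found in both kinds, at 0.467% and 0.461% of UMIs in Slc6a13 cells and 0.246% and 0.226% in Slc47a1 cells. Mural cells gave 0.0171% and 0.0226%. The fibrillar collagens Col1a1 and Col3a1 are also genes of the rule, which chose the fibroblasts and kept cells that met it out of the mural cells. The contrast with mural cells was thus partly set by the choice of cells, and no share without these genes is given. Efemp1 was at 451 and 629 CPM in the first kind and 439 and 475 CPM in the second. Col1a2 was at 950.3 and 776 CPM and at 563 and 436 CPM.

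Some levels rested on very few cells. Ptgds, which makes prostaglandin D2 and is a classical meningeal gene, was at 17130.4 and 15416 CPM in Slc6a13 cells, but 1 cell held 83.1% of those UMIs in the WT-labelled library and 1 cell held 78.0% in the KIKO-labelled library. Cemip, a hyaluronan-binding protein, was at 795 and 1936 CPM in Slc6a13 cells, and 1 KIKO-labelled cell held 65.8% of its UMIs there. Igfbp5 in the Slc47a1 kind likewise drew 59.0% and 74.9% of its UMIs from 1 cell of each library.

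Markers of other cells were present in part of the fibroblasts. At least 4 of 12 endothelial markers had a UMI in 9 of 41 WT-labelled and 7 of 32 KIKO-labelled fibroblasts. Summed over the 12, endothelial markers were at 3388 and 5354 CPM in all fibroblasts, and at 405 and 337 CPM once these cells were left out. In endothelial cells they were at 22591 and 23516 CPM. Choroid plexus markers were at 3247 and 1437 CPM in fibroblasts, with 2 and 5 of the 12 at 0, against 3962 and 2962 CPM in endothelial cells of the same libraries. At least 4 of these 12 had a UMI in 8 of 41 WT-labelled and 1 of 32 KIKO-labelled fibroblasts. Ecrg4, on this list, was at 1090 and 1505 CPM in the Slc47a1 kind. Astrocyte markers were at 984 and 1265 CPM, with 4 and 4 of 10 at 0, and Slc1a3 was the largest part. At least 4 of these 10 had a UMI in 6 WT-labelled and 5 KIKO-labelled fibroblasts. Microglial and macrophage markers were at 259 and 323 CPM with 4 and 1 of 12 at 0, and T cell markers at 5.51 and 28.1 CPM with 10 and 8 of 12 at 0. Oligodendrocyte, cerebellar neuron, Schwann cell, ependymal and erythroid markers were each at 339 CPM or less. The part of these cells and of free RNA in the differences below was not tested, apart from the values without the endothelial-marked cells.

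Fibroblasts were 2.95% of WT-labelled cells (41 of 1388, exact 95% interval 2.13 to 3.99) and 1.55% of KIKO-labelled cells (32 of 2063, 1.06 to 2.18). The difference was -1.403 percentage points, with an interval of -2.53 to -0.408 that covers counting error only. Among fibroblasts and mural cells together, fibroblasts made up 19.2% and 12.03%, a difference of -7.13 points (-13.8 to -0.642), or of -5.96 points (-12.3 to 0.0810) without the endothelial-marked cells. The interval reached 0 under several readings of the rule. With a gene of the rule counted only from 2 UMIs the difference was -0.757 points (-1.73 to 0.0905), and with no mural gene allowed it was -0.452 points (-1.15 to 0.109). Without cells holding 4 markers of another class it was -0.520 points (-1.36 to 0.201). Such a share can also move with dissociation and freezing, which acted once on each pool, and these cannot be told apart from genotype with 1 library each.

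The shares of each kind were also counted, and the difference between kinds was not tested. Slc6a13 cells were 1.15% and 1.07% of kept cells, a difference of -0.0863 points (-0.884 to 0.614), or of -0.329 points (-1.10 to 0.332) without the endothelial-marked cells. Slc47a1 cells were 0.937% and 0.291%, a difference of -0.646 points (-1.32 to -0.128), or of -0.574 points (-1.23 to -0.0702) without the endothelial-marked cells. Cells with neither were 0.865% and 0.194%, a difference of -0.671 points (-1.32 to -0.193). Without the endothelial-marked cells, only 4 WT-labelled and 2 KIKO-labelled cells with neither remained, and no interval of their share of kept cells was computed. As a share of fibroblasts, Slc6a13 cells were 39.0% in the WT-labelled and 68.8% in the KIKO-labelled library, a difference of 29.7 points (6.65 to 48.6), and Slc47a1 cells were 31.7% and 18.8%, a difference of -13.0 points (-31.1 to 7.58). Without the endothelial-marked cells the Slc6a13 shares were 50% and 68%, and the interval of the difference, -7.53 to 40.1 points, included 0. A level summed over all fibroblasts therefore mixed the kinds in different proportions in both libraries. Mgp was the clearest case: it was at 5835 CPM in WT-labelled and 1886 CPM in KIKO-labelled fibroblasts, a log2 ratio (KIKO over WT) of -1.63 (-1.77 to -1.49). Within the Slc47a1 kind the log2 ratio was -0.80 (-0.96 to -0.65). Within the Slc6a13 kind it was 3.50 (2.30 to 4.99), from 6 UMIs in 1 WT-labelled cell against 68 UMIs in 4 KIKO-labelled cells, 43 of them in 1 cell.

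Over all fibroblasts, 3929 genes averaged at least 50 CPM and held at least 30 UMIs over both libraries, and were compared. Of these, 293 (7.46%) were at or past 2-fold higher and 165 (4.2%) at or past 2-fold lower in the KIKO-labelled library. Without the endothelial-marked cells, 190 of 3252 genes (5.84%) were past 2-fold higher and 169 (5.20%) lower. Among Slc6a13 cells alone, 145 of 1594 genes (9.10%) were higher and 150 (9.41%) lower, and among Slc47a1 cells alone, 90 of 1281 (7.03%) were higher and 100 (7.81%) lower. The median log2 ratio of all genes compared was 0.07, 0.03, -0.00 and 0.08 in these 4 sets. With no replicates, a count of this kind has no error rate, and the shares serve as the background against which the gene lists are read.

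For 885 genes the counting interval of the ratio left out no change, and 813 of these were found in at least 10 fibroblasts with no single cell holding over 50% of the UMIs in the higher library. The 12 largest ratios in each direction were examined. Among those higher in the KIKO-labelled library, Unc13c, a regulator of vesicle release, had 11 UMIs in 7 WT-labelled and 74 in 11 KIKO-labelled fibroblasts, a log2 ratio of 3.10 (2.18 to 4.16), and stood at 3.11 without the endothelial-marked cells. 2210408I21Rik, with 10 and 52 UMIs, had a log2 ratio of 2.73, and 2.86 without those cells. For several others nearly all UMIs lay in the endothelial-marked cells, and too few remained without them for a ratio. Pecam1, an adhesion molecule of endothelial junctions, had 12 and 55 UMIs (log2 ratio 2.55), of which 2 and 3 remained. Sema3c, a secreted semaphorin, had 13 and 69 UMIs (2.76), of which 3 and 2 remained. Rasgrp3, with a log2 ratio of 2.97, had 0 and 0 UMIs left, and Polk, at 2.93, had 5 and 4. Slco1c1, the carrier of thyroid hormone and organic anions at the blood-brain barrier, had 34 and 162 UMIs and a log2 ratio of 2.60 (2.06 to 3.18), and 1 and 3 UMIs remained without those cells. Mpzl1, Lyn, Gbp7 and Stard8 were among the others, with log2 ratios from 2.18 to 2.48. Without the endothelial-marked cells, Mpzl1 kept 5 and 5 UMIs and Gbp7 3 and 6, and both intervals included no change. Lyn stood at 2.06 (0.77 to 3.54) and Stard8 at 1.67 (0.30 to 3.19) without those cells.

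Genes lower in the KIKO-labelled library were led by Tango6 and Npr3. Npr3, the clearance receptor for natriuretic peptides, had 54 UMIs in 9 WT-labelled cells, 27 of them in 1 cell, and 3 UMIs in 2 KIKO-labelled cells, a log2 ratio of -3.82 (-6.14 to -2.20). Tango6 had 36 and 2 UMIs and the same log2 ratio of -3.82 (-6.92 to -1.86), which turned to 1.09 when 2 of the 6 genes of the rule were enough. Cxcl1, a chemokine for neutrophils, had 89 and 10 UMIs (-2.80, -3.91 to -1.86), and Ptgs2, the inducible cyclooxygenase, had 41 and 7 (-2.20, -3.60 to -1.03), turning to 0.38 with no upper UMI limit. Adamts9, a protease of matrix proteoglycans, had 56 UMIs in 17 cells and 7 UMIs in 5 cells (-2.65, -4.03 to -1.51). Dbp, an output gene of the circadian clock that corticosterone also adjusts, had 38 and 6 UMIs (-2.31, -3.85 to -1.06). Tnfrsf12a, the receptor for the cytokine TWEAK, had 37 and 6 UMIs, and Atp1b1, a subunit of the sodium pump, 166 and 33. Pcdh11x, Nup210l, Txndc11 and Ipo7 were the remaining ones, with log2 ratios from -2.88 to -1.97, of which Txndc11 turned to 0.47 with no limit on mural genes and Nup210l to 0.58 with no mural gene allowed. Among Slc6a13 cells alone, Atp1b1 had 1 and 0 UMIs, Npr3 1 and 0, Tnfrsf12a 2 and 0, and Pcdh11x 0 and 0. Tango6 and Ptgs2 each had 5 and 0 there, Nup210l 3 and 3, Adamts9 9 and 3, and Ipo7 11 and 5. Cxcl1 had 81 and 6, Txndc11 54 and 6, and Dbp 25 and 1. The part of the mixture of kinds in these ratios was not tested. Cxcl1, Ptgs2 and Tnfrsf12a are genes that cells induce quickly on injury or inflammatory signals.

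Of the lists examined over all fibroblasts, many had medians close to that of all genes. Fibrillar and beaded collagens had a median log2 ratio of -0.02 over 12 genes, with 6 above 0 and 6 below. Nuclear-encoded respiratory chain subunits, the nuclear part of the oxidative phosphorylation machinery, had a median of -0.01 over 73 genes, with 0 past 2-fold higher and 1 past 2-fold lower. Iron and copper handling genes had a median of 0.05 over 14 genes with 2 past 2-fold in each direction. Meningeal transcription factors stood at -0.08 over 18 genes, retinoid genes at 0.06 over 10, and TGF-beta and BMP genes at -0.02 over 22. Basement membrane genes stood at 0.44, with 11 of 14 above 0 and 4 past 2-fold higher, pial and perivascular fibroblast genes at 0.45 with 7 of 8 above 0, and dural fibroblast genes at -0.49 with 3 of 5 below 0. Within the Slc6a13 kind the first of these 3 medians was 0.01 with 7 of 14 above 0, and the second 0.15. Within the Slc47a1 kind the dural median was 0.17. Within the Slc6a13 kind it was 1.99, over 2 genes, Mgp and Foxp1.

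**Figure D4:**
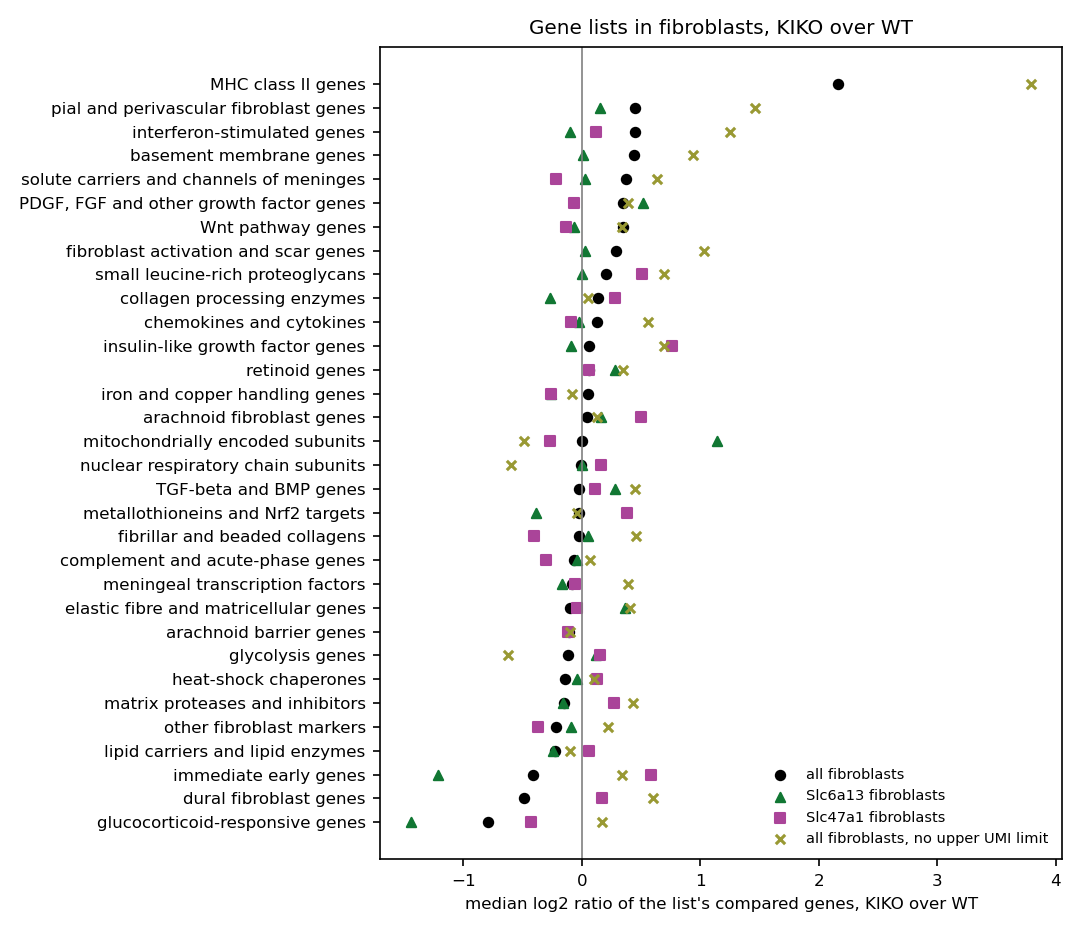
Median log2 ratio (KIKO-labelled over WT-labelled, x axis) of each gene list (y axis), over all fibroblasts, within each kind, and over all fibroblasts with no upper UMI limit (crosses, where MHC class II genes reached 3.79). Immediate early genes stood at -0.41 over all fibroblasts, -1.21 within the Slc6a13 kind and 0.58 within the Slc47a1 kind, glucocorticoid-responsive genes at -0.79, -1.44 and -0.43, and basement membrane genes at 0.44 over all fibroblasts and 0.01 within the Slc6a13 kind.

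Over all fibroblasts, 27 of 32 immediate early genes (median -0.41) and 18 of 18 glucocorticoid-responsive genes (-0.79) were lower in the KIKO-labelled library. Both medians turned to the other side, 0.34 and 0.17, when cells over the upper UMI limit were let in, which added 10 WT-labelled and 8 KIKO-labelled fibroblasts.

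Within the Slc6a13 kind, lists of acute response stood far from the background. Over 8 alternatives (other filters, other rules and a mean over cells), their medians in these cells ranged from -1.54 to -0.95 for immediate early genes and from -1.86 to -1.12 for glucocorticoid-responsive genes. Of 26 immediate early genes compared, 25 were lower in the KIKO-labelled cells and 17 were past 2-fold lower, with a median log2 ratio of -1.21, where 9.41% of all genes were past 2-fold lower. These genes are transcribed within minutes of a stimulus. Fos was at 7242 CPM in the WT-labelled and 2704 CPM in the KIKO-labelled Slc6a13 cells (884 and 331 UMIs, log2 ratio -1.42, -1.61 to -1.24). Junb was at 5899 and 1846 CPM (-1.68, -1.90 to -1.46), Egr1 at 3302 and 1193 CPM (-1.47, -1.75 to -1.19), and Ier2 at 2179 and 359 CPM (-2.60, -3.09 to -2.14). One KIKO-labelled cell held 40.8% of the Fos UMIs of its library and 47.8% of the Junb UMIs. Per cell, the list took 5.09% of UMIs at the median of the 16 WT-labelled cells (lowest 0.0884%, highest 11.2%) and 1.24% at the median of the 17 KIKO-labelled cells (0.0944% to 7.07%). The ranges overlapped widely, and some cells of both libraries held almost none.

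Glucocorticoid-responsive genes, which the stress hormone corticosterone induces through its receptor, stood lower in the same cells. All 14 genes compared were lower, 11 of them past 2-fold, with a median log2 ratio of -1.44. Fkbp5, a chaperone that feeds back on the glucocorticoid receptor, had 49 and 10 UMIs (-2.30, -3.44 to -1.30). Klf9, a Krüppel-like factor, was at 1016 and 327 CPM (-1.64, -2.19 to -1.11). The metallothionein Mt2, which binds zinc and copper, had 35 UMIs in 9 WT-labelled cells and 3 UMIs in 3 KIKO-labelled cells (-3.55, -5.89 to -1.88), while Mt1 was at 1229 and 613 CPM. Tsc22d3, the glucocorticoid-induced leucine zipper, was at 819 and 490.2 CPM (-0.74, -1.23 to -0.27). Dusp1 and Cebpd stand in both lists, at -1.45 and -1.42. Per cell, this list took 1.01% of UMIs at the WT-labelled median (0.309% to 1.64%) and 0.379% at the KIKO-labelled median (0.151% to 0.854%).

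Chemokines and cytokines of the Slc6a13 kind stood near all genes as a list, with a median log2 ratio of -0.02 over 10 genes and 4 of 10 above 0, and 3 past 2-fold lower against 0 past 2-fold higher. Among single genes, Cxcl1 was at 664 and 49.0 CPM (81 and 6 UMIs, -3.76, -5.25 to -2.57), and Nfkbia, the inhibitor that NF-kappaB induces of itself, at 827 and 204 CPM (-2.02). Ccl2, a chemokine for monocytes, was at 885 and 343 CPM (-1.37, -1.92 to -0.84), yet it stood on the other side over all fibroblasts, at 300.4 and 562 CPM (0.90, 0.54 to 1.27), and 1 WT-labelled cell held 72.2% of its UMIs in the Slc6a13 kind.

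Mitochondrially encoded subunits stood the other way in the Slc6a13 kind, with all 12 genes compared higher in the KIKO-labelled cells, 9 of them past 2-fold, and a median log2 ratio of 1.14, where 9.10% of all genes were past 2-fold higher. mt-Co2, a subunit of cytochrome oxidase, was at 983 and 3129 CPM (1.67, 1.37 to 1.98), mt-Nd3 of complex I at 98.3 and 400.3 CPM (2.03, 1.09 to 3.07), and mt-Co1 at 3596 and 6756 CPM (0.91, 0.74 to 1.08). Per cell these transcripts took 1.47% of UMIs at the WT-labelled median (0.0877% to 4.51%) and 2.92% at the KIKO-labelled median (0.755% to 8.49%). The cell filter used the same quantity, since it removed cells at 10% or more. The median log2 ratio was 0.66 with no upper UMI limit and 0.49 under a stricter filter (over 1000 genes, over 2000 UMIs and under 5% mitochondrial UMIs), with the direction unchanged in both. The 40 nuclear-encoded respiratory subunits compared in these cells had a median of -0.00, with 0 past 2-fold higher and 2 past 2-fold lower. The mitochondrial and nuclear genes of the same complexes stood at different ratios.

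**Figure D5:**
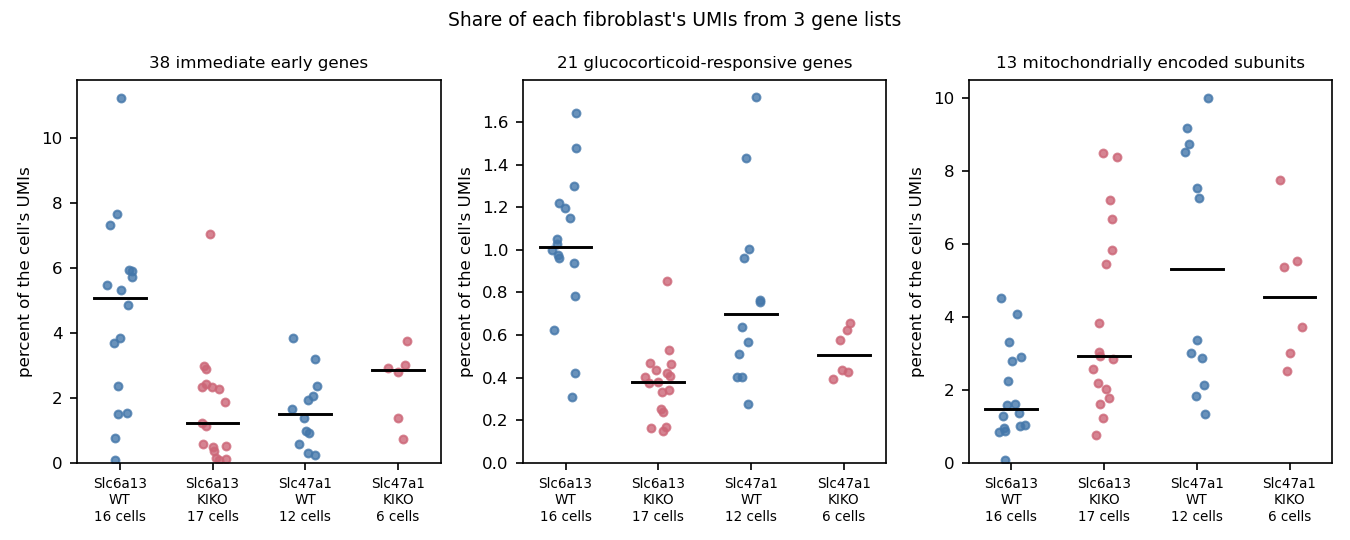
Percent of each fibroblast's UMIs (y axis) from immediate early genes, glucocorticoid-responsive genes and mitochondrially encoded subunits, with 1 point per cell and a bar at the median, for both kinds and both libraries. In Slc6a13 cells the medians were 5.09% and 1.24%, 1.01% and 0.379%, and 1.47% and 2.92% for the WT-labelled and KIKO-labelled libraries, with overlapping ranges.

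The Slc47a1 kind, with 12 and 6 cells, gave another picture. Of 23 immediate early genes, 21 were higher in the KIKO-labelled cells, 4 of them past 2-fold, with a median log2 ratio of 0.58. Ier2 was at 410 and 871 CPM (1.09, 0.55 to 1.63) and Junb at 1112 and 1861 CPM (0.74, 0.40 to 1.08), while Fos was at 3357 and 3630.4 CPM (0.11, -0.11 to 0.33). Per cell, the list took 1.52% of UMIs at the WT-labelled median (0.25% to 3.83%) and 2.86% at the KIKO-labelled median (0.733% to 3.76%). Glucocorticoid-responsive genes stood lower, as in the first kind, with 11 of 12 below 0 and 2 past 2-fold lower, a median of -0.43. Fkbp5 was at 592 and 449 CPM (-0.40, -1.02 to 0.19), an interval that included no change. Mitochondrially encoded subunits had a median of -0.27, with 11 of 13 below 0 and none past 2-fold. Whether the kinds differed in these respects was not tested, as each rested on 1 library per genotype.

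Other vascular cells of the same libraries gave a comparison for the same lists. Immediate early genes took 3.52% of the UMIs of mural cells in the WT-labelled and 2.10% in the KIKO-labelled library, and 4.02% and 3.06% in endothelial cells, against 5.02% and 2.21% in Slc6a13 cells. Glucocorticoid-responsive genes took 0.644% and 0.468% in mural cells, 0.894% and 0.757% in endothelial cells, and 1.03% and 0.425% in Slc6a13 cells. Mitochondrially encoded subunits took 2.77% and 3.18% in mural cells, 2.73% and 2.78% in endothelial cells, and 1.65% and 3.58% in Slc6a13 cells. In all 3 classes the KIKO-labelled value was the lower one for both response lists and the higher one for the mitochondrial transcripts. Dissociation and freezing, which acted once on each pool, cannot be told apart from genotype.

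Among matrix and growth factor lists of the Slc6a13 kind, PDGF, FGF and other growth factor genes had a median log2 ratio of 0.52 with 6 of 7 above 0, and collagen processing enzymes -0.27 with 0 of 4 above 0. Igf2, at chr7:142650766-142666816, was at 1286 and 2059 CPM, a log2 ratio of 0.68 (0.39 to 0.98), with UMIs in 14 of 16 and 16 of 17 cells. Lamc1, the laminin gamma chain common to most basement membranes, was at 565 and 997 CPM (0.82, 0.38 to 1.27), and Tbx18 at 246 and 539 CPM (1.13, 0.49 to 1.81). Lower in the KIKO-labelled cells were Col1a1 at 852 and 457 CPM (-0.90, -1.39 to -0.41), Vtn at 3670.2 and 1977 CPM (-0.89, -1.12 to -0.66), and Bmp6 at 827 and 368 CPM (-1.17, -1.71 to -0.65), of which 1 WT-labelled cell held 46.5%. Aldh1a1 was at 754 and 441 CPM (-0.77, -1.29 to -0.27). In the Slc47a1 kind, Rspo3 was at 702 and 1465 CPM (1.06, 0.65 to 1.47), Prg4 at 395 and 1875 CPM (2.25, 1.79 to 2.73) and Igfbp5 at 2033 and 5782 CPM (1.51, 1.29 to 1.73), with 46.8%, 66.2% and 74.9% of the KIKO-labelled UMIs in 1 cell. Col1a1 stood higher there, at 351 and 607 CPM (0.79, 0.17 to 1.4), opposite to the Slc6a13 kind.

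Over all fibroblasts, interferon-stimulated genes had a median log2 ratio of 0.45, with 18 of 20 above 0 and 4 past 2-fold higher. Within the Slc6a13 kind the median was -0.10 over 7 genes, and within the Slc47a1 kind 0.12 over 7. MHC class II genes encode the molecules that show antigen to helper T cells; 4 of 7 were compared and all 4 were higher in the KIKO-labelled library, 3 past 2-fold. H2-Aa had 12 UMIs in the WT-labelled and 37 in the KIKO-labelled fibroblasts, and H2-Eb1 4 and 32. After thinning, H2-Aa had a UMI in 3 of 41 and 3 of 32 fibroblasts and Cd74, the chain that guards class II molecules, in 3 and 2, so that these values rested on a few cells. Among thinned endothelial cells, H2-Aa had a UMI in 0 of 835 WT-labelled and 9 of 1318 KIKO-labelled cells, and Cd74 in 2 and 23. Both genes were thus found in a larger share of KIKO-labelled endothelial cells.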

How the data were processed

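For each library the authors deposited 1 matrix of UMI counts, genes by barcodes, which Cell Ranger had produced (version 7.0.1 per the file headers) on mm10. These counts were raw and covered 32285 genes. From here on, the values were computed for this report with Python 3.11.15, numpy 2.4.6, scipy 1.17.1 and pandas 2.3.3. Cells were filtered and fibroblasts chosen as given above, no doublet caller was run, and UMIs were summed over the fibroblasts of each library. CPM were computed from these sums, so the sums of 362792 and 284669 UMIs set the precision, and a count of 0 allows up to 3 UMIs. Ratios carry exact 95% intervals from the conditional binomial of 2 Poisson counts, shares carry Clopper-Pearson intervals and differences of shares carry Newcombe intervals. All cover counting error only, and no p was computed, as each genotype had 1 library. Genes named were the 12 highest and 12 lowest ratios under the limits stated, the 20 leading genes and genes of 33 lists and 11 marker lists. Kinds and the genes that separate them were named after their values were seen. The members and lists were chosen with earlier results of these data known. The scripts were tested on simulated data. Scaling by edgeR 4.0.16 (R 4.3.3) was tried as an alternative, as were other filters, rules and floors. Gene coordinates came from GENCODE vM21 (GRCm38), where 32158 gene identifiers were found. For symbols listed more than once, the most abundant entry was taken. UMI counts of different genes are not levels per length. Some genes are not reported here.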

Additional observations from a re-analysis of the deposited data

Results flagged for a closer look

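The filter on cells removed barcodes that met the fibroblast genes of the rule, and these stayed outside every comparison above. There were 29 in the WT-labelled library, of which 12 were over the upper UMI limit and 15 at or over the mitochondrial limit, and 14 in the KIKO-labelled library, of which 8 were over the UMI limit and 4 at or over the mitochondrial limit. Slc6a13 had a UMI in 4 of the 29 and 5 of the 14, and Slc47a1 in 15 and 3. Among those over the UMI limit, Slc47a1 was found in 8 WT-labelled and 2 KIKO-labelled barcodes and Slc6a13 in 1 and 5. The filter thus removed both kinds, in different numbers from each library.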

How the results depend on the processing

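No paired analysis was possible because WT and KIKO had 1 library apiece. Of 600 values that answer a comparison and were recomputed under another setting, 536 stayed within a set limit and 64 moved. Of 705 values of single genes, 534 stayed within it, 158 moved and 13 changed side. The limit was the main counting interval for shares and genes, the median bounds of such intervals for lists, and a fixed fold for counts. Lists and genes under 2-fold in the main result could only stay or move, even where they turned to the other side. Among the 534, the 2 floors gave 41 each and the 2 scalings 41 each. Floors leave a gene's ratio as it is and scalings shift all ratios alike by little, so these values had little or no room to move. Counting error, 1 library per genotype, 41 and 32 cells and the mixture of kinds limit what these data can show; the cause of each change was not tested. The share difference became -0.329 points for Slc6a13 cells alone. The number of genes compared changed with the setting and is given beside each count. Genes past 2-fold higher numbered 293 of 3929 in the main setting, 452 of 3604 with no upper UMI limit and 163 of 1576 with no mural gene allowed. They numbered 190 of 3252 without endothelial-marked cells, 145 of 1594 among Slc6a13 cells and 90 of 1281 among Slc47a1 cells. At a floor of 100 CPM and 60 UMIs they numbered 117 of 1980, and with no CPM floor and 10 UMIs 929 of 8302. Genes past 2-fold lower numbered 165 of 3929 in the main setting, 91 of 1576 with no mural gene allowed and 100 of 1281 among Slc47a1 cells. They numbered 73 of 1980 at the higher floor and 743 of 8302 with no CPM floor. Scaling shifted all log2 ratios by -0.06 (edgeR TMM) or -0.07 (median of ratios).

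With no upper UMI limit, list medians were 0.46 for collagens, 0.94 for basement membrane, 0.69 for small proteoglycans, 0.43 for matrix proteases, 1.46 for pial, 0.60 for dural, 0.34 for immediate early, 0.17 for glucocorticoid-responsive, 1.25 for interferon-stimulated, 3.79 for MHC class II, -0.49 for mitochondrially encoded and 1.03 for activation and scar genes. With 2 of the 6 genes enough, they were -0.60 for other fibroblast markers, -0.66 for collagens, -0.25 for small proteoglycans, 3.89 for MHC class II and -0.39 for activation and scar genes. With no mural gene allowed, they were -0.45 for collagens, 2.0 for pial, 0.64 for arachnoid barrier, -0.09 for dural, 0.62 for complement, 0.12 for immediate early, 0.44 for chaperone and -0.29 for mitochondrially encoded genes. Without cells holding 4 markers of another class, they were 0.37 for other fibroblast markers, 0.42 for collagens, 0.96 for basement membrane, 1.37 for pial, -1.36 for dural, -0.13 for solute carrier, -0.35 for Wnt, -1.01 for immediate early and -0.19 for mitochondrially encoded genes. Among Slc6a13 cells alone, they were -1.21 for immediate early, -1.44 for glucocorticoid-responsive, -0.10 for interferon-stimulated and 1.14 for mitochondrially encoded genes; the last became 0.66 there with no upper UMI limit and 0.49 under a stricter filter. Among Slc47a1 cells alone, they were -0.40 for collagens, 0.17 for dural, -0.22 for solute carrier, 0.76 for insulin-like growth factor, 0.58 for immediate early and -0.27 for mitochondrially encoded genes. Single settings moved dural genes to -0.81 (a gene of the rule at 2 UMIs), -0.89 (mean of per-cell CPM) and -0.16 (higher floor), small proteoglycans to 0.73 (mean of per-cell CPM), complement genes to 0.31 (4 of the 6 genes) and mitochondrially encoded genes to -0.50 (looser filter).

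Only genes at or past 2-fold over all fibroblasts were checked for a change of side, and those that changed were these. Among Slc47a1 cells alone, log2 ratios were -0.15 for 2210408I21Rik, 1.34 for Nup210l, 0.37 for Dbp, -0.15 for Lamc1 and -2.32 for Col4a2. Among Slc6a13 cells alone they were 3.50 for Mgp and -0.50 for Igf1r, and Igf1r was at -0.12 without cells holding 4 markers of another class and -0.19 without endothelial-marked cells. Tango6 was at 1.09 with 2 of the 6 genes enough, Nup210l at 0.58 with no mural gene allowed, Ptgs2 at 0.38 with no upper UMI limit and Txndc11 at 0.47 with no mural limit.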
